A study of Mus musculus with 15 samples.

Results

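The 9 genes described here encode growth factors that macrophages can release onto the other cells of an injured liver, some known for driving scar formation and some for repair: Tgfb1, Pdgfa, Pdgfb, Pdgfc, Igf1, Hbegf, Osm, Areg and Hgf. They were chosen by name and found through the RefSeq accession of their probes, among 20145 genes that had a named probe. Of the 9, 8 had a probe above background and were tested together with 13390 genes in all, and 1, Areg, was not above background on any array. The data are 15 one-colour microarrays of liver macrophages, 5 in each of 3 groups. Cells with high F4/80, a macrophage surface protein encoded by Adgre1, were sorted from digested livers by CD11c, the integrin chain encoded by Itgax.

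The first group (wildtype below) was CD11c-negative macrophages of male wildtype mice with normal livers, kept on standard diet, for which the sources used here give no age. The second and the third were the CD11c-negative and the CD11c-positive macrophages of male mice that lacked the melanocortin 4 receptor, a brain receptor that restrains food intake, and that ate a Western diet for 20 weeks from 8 weeks of age. These livers had non-alcoholic steatohepatitis (NASH). Genotype and diet differed together between the wildtype and both NASH groups, so what belongs to either cannot be told apart, and CD11c-positive cells of wildtype livers are not analysed here. Each sample is RNA from the pooled macrophages of 7 to 9 animals. Nothing in the labels says that the 5 samples of a group came from separate pools, so the p-values rest on a spread that may be technical.

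Transforming growth factor beta 1 is secreted in a latent complex and, once released from it, acts on receptors that signal through SMAD proteins, which turn stellate cells into collagen-producing myofibroblasts. Platelet-derived growth factors drive the division and migration of the same cells. Hepatocyte growth factor, through its receptor MET, and the ligands of the epidermal growth factor receptor are known for driving hepatocyte growth, insulin-like growth factor 1 is a growth and survival factor, and oncostatin M is a cytokine of the interleukin 6 family.

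Against wildtype, the NASH CD11c-negative cells had more transcript of Osm (3.41-fold), Pdgfa (2.33-fold), Pdgfb (1.93-fold), Hgf (1.6-fold) and Tgfb1 (1.25-fold), and less of Pdgfc (1.23-fold) and Hbegf (1.17-fold). These folds were larger than the spread over 5 arrays against 5 for each of the 7 genes, by limma with adjustment over all genes. The direction for Igf1 was not settled, because its probes went opposite ways. The sizable difference between the NASH populations was in Hbegf, the transcript of a ligand of the epidermal growth factor receptor, which was 1.71-fold lower in CD11c-positive cells. Markers of conventional dendritic cells, which also carry CD11c, moved with this sort. Of 8, 7 were higher and 0 lower in CD11c-positive than in CD11c-negative NASH cells (median log2 difference 2.10, Flt3 20.4-fold higher). Their summed linear level was 101.9 to 112.3 against 44.9 to 50.6, and 79.3 to 88.4 in wildtype. Their part in any difference between these groups was not tested. In a sorted population measured in bulk, fewer cells of a type and less RNA per cell cannot be told apart.

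All levels below are log2 signals relative to the 75th percentile of the array (0 is the 75th percentile), listed in the order of replicates 1 to 5. Differences are of group means, ± the standard error from limma with 5 arrays a group, and adjusted p is Benjamini-Hochberg over the 13390 genes. A gene is called where that p is under 0.05. The level of a probe depends on its sequence, so levels are compared between groups and never between genes. The 75th percentile ranged from 358.6 to 562.4 signal units, 45.8% to 58.0% of spots were well above background, and the median gene had an SD of 0.0751, 0.0888 and 0.0700 in the wildtype, NASH CD11c-negative and NASH CD11c-positive arrays. Itgax, the gene of the sorting marker, had means of 4.21, 5.93 and 7.29 in these groups, and Adgre1 means of 7.34, 7.74 and 7.31. The deleted receptor gene Mc4r did not stand well above background on a single array, wildtype included (0 of 15), so it gives no check of the genotype. Of 9 macrophage markers with a probe, all 9 were above background on every array. Markers of Kupffer cells, the resident macrophages of the liver, went from a summed linear level (75th percentile = 1) of 2415 to 2657 in wildtype to 1421 to 1562 and 1107 to 1208 in the NASH groups.

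Many genes moved in this experiment, and the counts of growth factors are to be read against that. Of all genes tested, 76.8% were called between NASH CD11c-negative and wildtype cells, 48.3% higher and 28.5% lower, and 64.1% had arrays that did not overlap between the groups. Of the 8 growth factors tested, 6 were called higher, 2 lower, and all 8 had arrays that did not overlap, which beside those shares is no result about them. A change of at least 2-fold was called for 11.4% of all genes (5.18% higher and 6.22% lower) and for 2 of the 8, Osm and Pdgfa, both higher. The median difference was 0.50 over the 8 growth factors and 0.13 over all genes. With quantile normalization in place of the 75th percentile the latter was 0.00, higher genes made up 49.0% of the calls in place of 62.9%, and 5 growth factors were higher and 3 lower, Igf1 having changed sides.

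**Figure D1:**
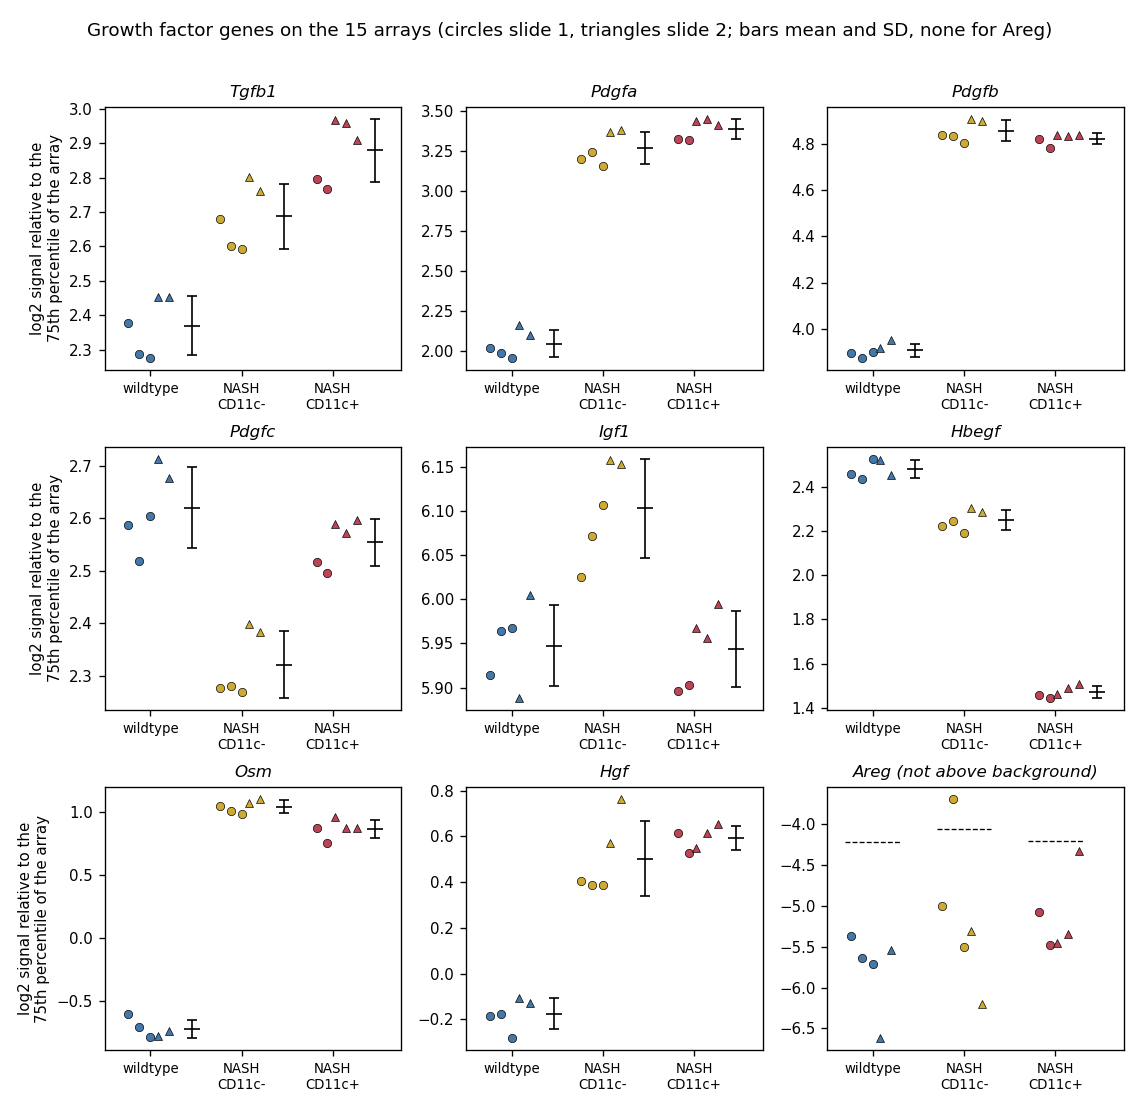
Log2 signal relative to the 75th percentile of the array (y axis, a different range in each panel) of the 9 growth factor genes on the 15 arrays, by group. Circles are arrays of slide 1, triangles arrays of slide 2, and bars the mean and SD of 5 arrays; for Areg, which has no bars, dashed lines mark the group mean of the lowest signal called well above background. The wildtype arrays of Osm, Pdgfa, Pdgfb and Hgf lie below all NASH arrays, and the NASH CD11c-positive arrays of Hbegf lie below all others.

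Tgfb1 encodes transforming growth factor beta 1. Its promoter is shown, with those of Pdgfa, Pdgfc and Hgf below, because these are growth factors called higher or lower whose upstream bases the table of promoters holds. The table also holds Igf1, which is not shown because its probes disagreed. Each is the 250 bases before the RefSeq start, in assembly GRCm38.p6, read in the direction of the gene, with GC boxes (GGGCGG on either strand, the core of the site of Sp1-type factors) in capitals. A GC box stands in 32.7% of 32851 mouse promoters of this length, and a match is a description of the letters, not evidence of binding.
Tgfb1 (chr7:25686752-25687001, plus strand): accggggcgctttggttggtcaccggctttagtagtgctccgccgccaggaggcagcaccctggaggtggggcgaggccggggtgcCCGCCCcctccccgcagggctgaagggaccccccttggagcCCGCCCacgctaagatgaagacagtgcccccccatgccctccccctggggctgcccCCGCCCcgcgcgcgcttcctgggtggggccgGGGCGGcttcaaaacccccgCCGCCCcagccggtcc
The window holds 5 GC boxes and is 75.2% G and C, against a median of 52.4% over all promoters.

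Tgfb1 levels were 2.38, 2.29, 2.28, 2.45 and 2.45 on the wildtype arrays. They were 2.68, 2.60, 2.59, 2.80 and 2.76 on the NASH CD11c-negative arrays. They were 2.80, 2.77, 2.97, 2.96 and 2.91 on the NASH CD11c-positive arrays. Every NASH array was above every wildtype array, while the NASH populations overlapped, with 1 CD11c-negative array (replicate 4) lying above the 2 lowest CD11c-positive ones. Tgfb1 rose by 0.32 ± 0.056 in CD11c-negative cells (1.25-fold, limma adjusted p = 0.000117) and was higher by a further 0.19 ± 0.056 in CD11c-positive cells (1.14-fold, limma adjusted p = 0.0102). The array holds 10 spots of this probe, whose SD on an array was 0.0259 to 0.0655. The arrays lay on 2 slides, scanned separately, and in each group the slide 2 arrays of Tgfb1 were all above those of slide 1. Within the slides, the difference between the NASH populations was 0.16 on slide 1 and 0.16 on slide 2, and the difference of CD11c-negative cells from wildtype was 0.31 on slide 1 and 0.33 on slide 2. With quantile normalization the latter was smaller, 0.14, and still passed.

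Among the platelet-derived growth factors, Pdgfa and Pdgfb encode the classical A and B chains, which pair with themselves or each other, and Pdgfc encodes a chain that needs proteolytic release. Pdgfa has 2 RefSeq starts on the minus strand of chromosome 5, which its promoters below precede, with the same marking.
Pdgfa, downstream start (chr5:138994282-138994531, minus strand): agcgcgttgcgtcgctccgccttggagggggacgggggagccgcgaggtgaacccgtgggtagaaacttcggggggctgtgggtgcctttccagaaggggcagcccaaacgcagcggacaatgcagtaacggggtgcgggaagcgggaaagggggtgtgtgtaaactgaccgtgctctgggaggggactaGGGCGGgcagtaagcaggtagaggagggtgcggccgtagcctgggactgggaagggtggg
Pdgfa, upstream start (chr5:138994945-138995194, minus strand): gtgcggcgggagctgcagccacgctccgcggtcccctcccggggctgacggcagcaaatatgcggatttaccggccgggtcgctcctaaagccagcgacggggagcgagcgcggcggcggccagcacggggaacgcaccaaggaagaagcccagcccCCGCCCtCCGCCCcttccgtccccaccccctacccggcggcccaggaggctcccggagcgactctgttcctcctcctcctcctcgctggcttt
These hold 1 and 2 GC boxes and are 66.4% and 72.4% G and C. The promoter of Pdgfc holds 0 GC boxes and is 50.8% G and C.
Pdgfc (chr3:81036166-81036415, plus strand): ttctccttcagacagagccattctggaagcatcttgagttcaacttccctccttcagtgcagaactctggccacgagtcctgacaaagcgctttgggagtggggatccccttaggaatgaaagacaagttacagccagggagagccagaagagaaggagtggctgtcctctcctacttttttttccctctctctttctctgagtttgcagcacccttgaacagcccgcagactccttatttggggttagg

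Pdgfa levels were 2.02, 1.99, 1.96, 2.17 and 2.10 in wildtype cells. They were 3.20, 3.24, 3.15, 3.37 and 3.38 in NASH CD11c-negative cells. They were 3.33, 3.31, 3.44, 3.45 and 3.41 in NASH CD11c-positive cells. The wildtype arrays lay about a whole log2 unit below all others. Pdgfa rose by 1.22 ± 0.052 in CD11c-negative cells against wildtype (2.33-fold, limma adjusted p = 2.45e-11), more in size than 91.9% of the genes tested. Between the NASH populations the difference of 0.12 ± 0.052 did not pass (limma adjusted p = 0.0693, 95% interval 0.01 to 0.23). It did pass in 10 of 28 alternatives, among them those without replicate 4 (0.14) or replicate 5 (0.15) of the CD11c-negative group, slide 1 alone (0.12), slide as a block (0.09), normexp background correction (0.18) and quantile normalization (0.11). It did not pass on slide 2 alone (0.06). Another Pdgfa probe, A_55_P2125588, gave 1.19 against wildtype and 0.17 between the NASH populations, where it passed (limma adjusted p = 0.00904 over 28175 probes).

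Pdgfb levels were 3.90, 3.87, 3.90, 3.92 and 3.95 in wildtype cells. They were 4.84, 4.83, 4.80, 4.91 and 4.90 in NASH CD11c-negative cells. They were 4.82, 4.78, 4.84, 4.84 and 4.84 in NASH CD11c-positive cells. Here the wildtype arrays were again apart from all others, and the NASH populations were interleaved. Pdgfb rose by 0.95 ± 0.0261 against wildtype in CD11c-negative cells (1.93-fold, limma adjusted p = 1.86e-13) and by 0.92 ± 0.0261 in CD11c-positive cells (1.88-fold, limma adjusted p = 2.08e-13). The NASH populations differed by -0.03 ± 0.0261, which did not pass (limma adjusted p = 0.292, 95% interval -0.09 to 0.02). The sign of that small difference turned with normexp background correction (0.00), quantile normalization (0.01) and the other Pdgfb probe, A_55_P1974441 (0.16), which rose by 0.99 against wildtype. Platelets are a known source of platelet-derived growth factors, and their 6 markers had a summed linear level of 38.9 to 42.1 in wildtype, 95.6 to 105.6 in NASH CD11c-negative and 65.4 to 68.9 in NASH CD11c-positive arrays, with Gp1ba not above background in any group. Nearly all of that sum was Pf4, whose means were 5.34, 6.66 and 6.06. Of the 3 markers tested, 2 were higher and 0 lower in CD11c-negative cells against wildtype, and 1 was higher (Pf4) and 1 lower (Ppbp) in CD11c-positive cells. Their part in the levels of Pdgfa, Pdgfb and Tgfb1 was not tested.

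Pdgfc ran a different course. Its levels were 2.59, 2.52, 2.60, 2.71 and 2.68 in wildtype cells. They were 2.28, 2.28, 2.27, 2.40 and 2.38 in NASH CD11c-negative cells. They were 2.52, 2.50, 2.59, 2.57 and 2.60 in NASH CD11c-positive cells. The CD11c-negative NASH arrays were the low ones, below all arrays of the other groups, which overlapped each other. Pdgfc fell in CD11c-negative cells, with a difference from wildtype of -0.30 ± 0.041 (1.23-fold lower, limma adjusted p = 1.04e-05), and was higher by 0.23 ± 0.041 in CD11c-positive than in CD11c-negative cells (limma adjusted p = 0.000261). CD11c-positive cells differed from wildtype by -0.07 ± 0.041, which did not pass (limma adjusted p = 0.157, 95% interval -0.15 to 0.02), although it passed on slide 2 alone (-0.11), with slide as a block (-0.09), with a block for the replicate number (-0.07) and with quantile normalization (-0.29).

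The ligands of the epidermal growth factor receptor on the list are heparin-binding EGF-like growth factor (Hbegf) and amphiregulin (Areg). Both are made as membrane proteins from which proteases such as ADAM17 release the ligand. Hbegf levels were 2.46, 2.44, 2.53, 2.52 and 2.45 in wildtype cells. They were 2.22, 2.25, 2.19, 2.30 and 2.28 in NASH CD11c-negative cells. They were 1.46, 1.45, 1.47, 1.49 and 1.51 in NASH CD11c-positive cells. The 3 groups did not overlap at all, and most of the step lay between the NASH populations. Hbegf fell in CD11c-negative cells, with a difference from wildtype of -0.23 ± 0.0284 (1.17-fold lower, limma adjusted p = 3.41e-06). In CD11c-positive cells it was lower than in CD11c-negative cells by a larger step, a difference of -0.77 ± 0.0284 (1.71-fold lower, limma adjusted p = 2.06e-11), more in size than 94.7% of the genes tested. On each slide alone that difference was close to the same, -0.77 on slide 1 and -0.80 on slide 2. Against wildtype the CD11c-positive cells were 2.01-fold lower (-1.01 ± 0.0284, limma adjusted p = 1.85e-13).

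Areg stood well above background on 0 of 15 arrays, so it has no fold and no test. Its signals were -5.36, -5.64, -5.71, -6.62 and -5.54 in wildtype, -5.00, -3.69, -5.50, -5.31 and -6.20 in NASH CD11c-negative and -5.08, -5.48, -5.46, -5.35 and -4.33 in NASH CD11c-positive cells. The lowest signal that any probe well above background had on an array was -4.90 to -3.25, and most of the Areg signals were under this range. Mast cells, basophils and type 2 innate lymphoid cells are known sources of amphiregulin, and of their 9 markers 5 were above background on all wildtype arrays (Cpa3, Gata3, Hdc, Il1rl1 and Kit), 3 on all NASH CD11c-negative arrays and 4 on all NASH CD11c-positive arrays. Mcpt8 and Ms4a2 were not above background in any group. The summed linear level was 8.47 to 9.21, 9.34 to 10.4 and 5.45 to 5.93 in the 3 groups. Most of that sum in wildtype and NASH CD11c-negative cells was Hdc, whose means there were 2.54 and 3.13. Of the 6 tested, 1 was higher (Hdc) and 4 lower in CD11c-negative cells against wildtype (median -1.05). In CD11c-positive cells against wildtype 0 were higher and 5 lower (median -0.77).

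Igf1 encodes insulin-like growth factor 1, which the liver is known to secrete into the blood from hepatocytes and which macrophages also make. On its brightest probe, A_55_P2031631, its levels were 5.914, 5.964, 5.967, 5.888 and 6.005 in wildtype cells. They were 6.025, 6.072, 6.107, 6.158 and 6.154 in NASH CD11c-negative cells. They were 5.896, 5.903, 5.968, 5.956 and 5.995 in NASH CD11c-positive cells. The CD11c-negative NASH arrays were the high ones, a little above all others, and the other groups overlapped. By this probe Igf1 was higher by 0.16 ± 0.0333 in CD11c-negative cells than in wildtype (1.11-fold, limma adjusted p = 0.00064). It was lower in CD11c-positive than in CD11c-negative cells, with a difference of -0.16 ± 0.0333 (limma adjusted p = 0.00102), and CD11c-positive cells differed from wildtype by 0.00 ± 0.0333 (limma adjusted p = 0.922, 95% interval -0.08 to 0.07). With quantile normalization the difference of CD11c-negative cells from wildtype turned to -0.30, and that of CD11c-positive cells became -0.38 and passed, as it did with the mean of the probes (-0.33).

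The 4 Igf1 probes did not tell the same story against wildtype. Between the NASH populations all 4 were lower in CD11c-positive cells (-0.159, -0.177, -0.287 and -0.335) and passed in a probe-level limma fit. A_55_P2085984 went with the brightest probe, with means of 5.69, 5.85 and 5.68 in wildtype, NASH CD11c-negative and NASH CD11c-positive cells. A_55_P2085974 instead stepped down, from 3.76, 3.78, 3.79, 3.78 and 3.79 in wildtype to 3.46, 3.51, 3.47, 3.49 and 3.57 in CD11c-negative cells. It went to 3.21, 3.22, 3.23, 3.20 and 3.21 in CD11c-positive cells. On this probe the 3 groups did not overlap, and CD11c-positive cells were the lowest. A_55_P2031636 also stepped down, with means of 0.43, 0.04 and -0.30. The stepping probes fell against wildtype by 0.28 and 0.39 in CD11c-negative cells and by 0.57 and 0.73 in CD11c-positive cells (A_55_P2085974 and A_55_P2031636, probe-level limma fit). Set against the brightest probe on the same array, which leaves out scaling between arrays, their changes from wildtype to CD11c-negative cells were -0.44 and -0.55. Each of these, and each of the other changes of these probes between groups, had an exact 2-sided permutation p of 0.00794, the smallest that 5 arrays against 5 allow (Benjamini-Hochberg over 9 tests, 0.0119). For A_55_P2085984 the same changes were 0.00, -0.02 and -0.01, with exact permutation p of 0.905, 0.635 and 0.714. Where on the transcripts of Igf1 these probes lie was not examined. Of the 8 hepatocyte markers, 2 were higher and 5 lower in CD11c-negative cells against wildtype (median -0.57, Alb 2.28-fold lower), and 0 higher and 6 lower in CD11c-positive cells (median -0.84). Their summed linear level, 259.3 to 278.0 in wildtype, 288.4 to 316.5 in NASH CD11c-negative and 245.8 to 265.1 in NASH CD11c-positive arrays, is mostly that of Trf, the transferrin gene, whose means were 7.85, 8.13 and 7.88. Their part in the Igf1 signals was not tested.

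**Figure D2:**
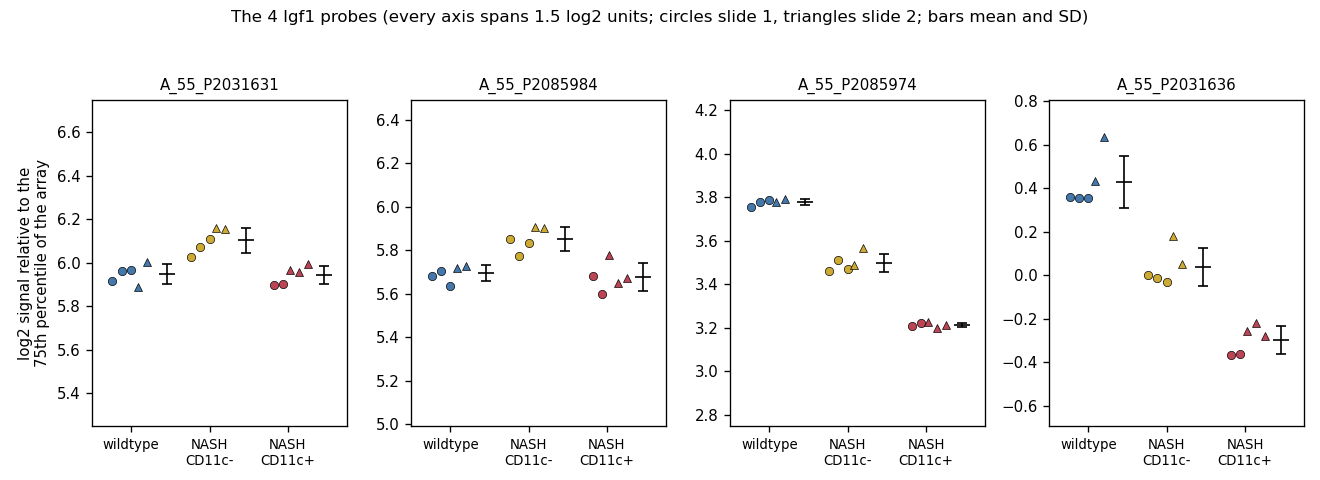
Log2 signal relative to the 75th percentile of the array (y axis, each spanning 1.5 units) of the 4 probes of Igf1 on the 15 arrays, by group, with the mean and SD of 5 arrays. In A_55_P2031631 and A_55_P2085984 the NASH CD11c-negative arrays are the highest, and in A_55_P2085974 and A_55_P2031636 the signal steps down from wildtype to NASH CD11c-negative to NASH CD11c-positive cells.

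Hgf encodes hepatocyte growth factor, known in the liver mainly as a product of stellate and endothelial cells. Its RefSeq starts on the plus strand of chromosome 5 are preceded by these promoters, which hold 0 GC boxes and are 50.8% and 51.2% G and C.
Hgf, upstream start (chr5:16553245-16553494, plus strand): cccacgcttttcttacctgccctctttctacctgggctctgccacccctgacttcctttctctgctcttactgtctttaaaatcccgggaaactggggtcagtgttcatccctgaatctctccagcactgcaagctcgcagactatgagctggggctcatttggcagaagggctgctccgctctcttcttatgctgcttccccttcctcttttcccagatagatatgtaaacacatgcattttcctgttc
Hgf, downstream start (chr5:16553651-16553900, plus strand): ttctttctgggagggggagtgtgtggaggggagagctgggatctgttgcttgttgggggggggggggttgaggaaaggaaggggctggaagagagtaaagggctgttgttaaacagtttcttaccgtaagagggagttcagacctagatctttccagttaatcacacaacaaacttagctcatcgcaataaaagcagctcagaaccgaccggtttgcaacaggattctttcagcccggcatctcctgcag

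Hgf levels were -0.19, -0.18, -0.28, -0.11 and -0.13 in wildtype cells. They were 0.41, 0.39, 0.39, 0.57 and 0.76 in NASH CD11c-negative cells. They were 0.62, 0.53, 0.55, 0.61 and 0.65 in NASH CD11c-positive cells. All NASH arrays were above all wildtype arrays, and replicate 5 of the CD11c-negative group was the highest of the 15. Hgf rose by 0.68 ± 0.0656 in CD11c-negative cells (1.6-fold, limma adjusted p = 2.49e-07) and by 0.77 ± 0.0656 in CD11c-positive cells (1.7-fold, limma adjusted p = 5.63e-08). Between the NASH populations the difference was 0.09 ± 0.0656 and did not pass (limma adjusted p = 0.274, 95% interval -0.05 to 0.23). Without replicate 5 of the CD11c-negative group it was 0.15 and passed (limma adjusted p = 0.0142), and within the slides it was 0.18 on slide 1 and -0.06 on slide 2. The 10 stellate cell and fibroblast markers had a summed linear level of 6.59 to 7.26 in wildtype, 9.45 to 10.2 in NASH CD11c-negative and 6.93 to 7.34 in NASH CD11c-positive arrays, with Des and Reln not above background. Most of that sum in wildtype and NASH CD11c-negative cells was Dcn, whose means there were 2.14 and 2.54. Its mean in NASH CD11c-positive cells was 1.69. Of the 7 tested, 5 were higher and 1 lower in CD11c-negative cells against wildtype and 4 higher and 3 lower in CD11c-positive cells, where Col1a1 was higher by 1.74 and Col3a1 by 1.11. The 10 markers of sinusoidal endothelium went from 326.4 to 357.6 in wildtype to 196.4 to 208.1 and 128.1 to 133.0 in the NASH groups. Of these 10, 1 was higher (Kdr) and 9 lower in CD11c-negative cells against wildtype, and 0 higher and 9 lower in CD11c-positive cells. The part of either cell type in the Hgf signal was not tested.

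Osm encodes oncostatin M, an inflammatory cytokine made by myeloid cells, which signals through gp130 with its own receptor. Its levels were -0.61, -0.71, -0.79, -0.78 and -0.74 in wildtype cells. They were 1.05, 1.01, 0.98, 1.08 and 1.10 in NASH CD11c-negative cells. They were 0.87, 0.76, 0.96, 0.88 and 0.87 in NASH CD11c-positive cells. The wildtype arrays lay below the 75th percentile and all NASH arrays above it, and the NASH populations did not overlap, the CD11c-negative arrays being the higher. Osm rose by 1.77 ± 0.042 in CD11c-negative cells (3.41-fold, limma adjusted p = 3.44e-14), more in size than 96.5% of the genes tested. It rose by 1.59 ± 0.042 in CD11c-positive cells against wildtype (3.02-fold, limma adjusted p = 8.25e-14), and was lower there than in CD11c-negative cells, with a difference of -0.18 ± 0.042 (limma adjusted p = 0.00275). Within the slides that last difference was -0.20 on slide 1 and -0.19 on slide 2. Neutrophils are a known source of oncostatin M, and 11 of their markers had a summed linear level of 416.6 to 436.6 in wildtype, 1591 to 1741 in NASH CD11c-negative and 649.9 to 683.8 in NASH CD11c-positive arrays, all 11 above background on every array. Most of that sum in wildtype and NASH CD11c-negative cells was S100a9 (means 7.71 and 9.52) and S100a8 (means 6.05 and 8.68). Of the 11, 10 were higher and 1 lower (Csf3r) in CD11c-negative cells against wildtype. In CD11c-positive cells 9 were higher and 2 lower against wildtype, and 0 higher and 10 lower against CD11c-negative cells. The part of neutrophils in the Osm signal was not tested.

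The median absolute difference over the 8 growth factors was 0.17 between the NASH populations, against 0.50 and 0.84 for CD11c-negative and CD11c-positive cells against wildtype, and over all genes it was 0.17, 0.35 and 0.37. Between CD11c-positive and CD11c-negative NASH cells, 53.1% of all genes were called, 29.9% higher and 23.2% lower, and 39.5% had arrays without overlap. Of the 8 growth factors, 2 were called higher (Tgfb1 and Pdgfc), 3 lower (Hbegf, Igf1 by its brightest probe, and Osm) and 3 did not pass (Pdgfa, Pdgfb and Hgf). Arrays did not overlap for 4 of them, Hbegf, Igf1, Osm and Pdgfc. None of the 8 changed 2-fold or more, as did 2.85% of all genes, and the median difference was 0.03 against 0.02 over all genes.

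Between CD11c-positive NASH cells and wildtype, 77.6% of all genes were called, 51.4% higher and 26.3% lower, and 69.3% had arrays without overlap. Of the 8, 5 were called higher (Tgfb1, Pdgfa, Pdgfb, Osm and Hgf), 1 lower (Hbegf) and 2 did not pass (Pdgfc and Igf1), and the arrays of the other 6 did not overlap. Tgfb1 was higher by 0.51 ± 0.056 (1.42-fold, limma adjusted p = 8.95e-07) and Pdgfa by 1.34 ± 0.052 (2.53-fold, limma adjusted p = 6.62e-12). A change of at least 2-fold was called for 3 growth factors (Pdgfa, Osm and Hbegf) and for 13.7% of all genes (6.65% higher and 7.02% lower). Hbegf stood at the edge of that cut, with a difference of -1.005. It was -0.927 with normexp background correction, -1.188 with quantile normalization and -1.015 to -0.993 with each array left out. The median difference was 0.64 over the 8 and 0.17 over all genes, the latter 0.05 with quantile normalization, under which higher genes made up 54.4% of the calls in place of 66.2%. This comparison shares its arrays with both others, so its values are not a separate measurement.

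**Figure D3:**
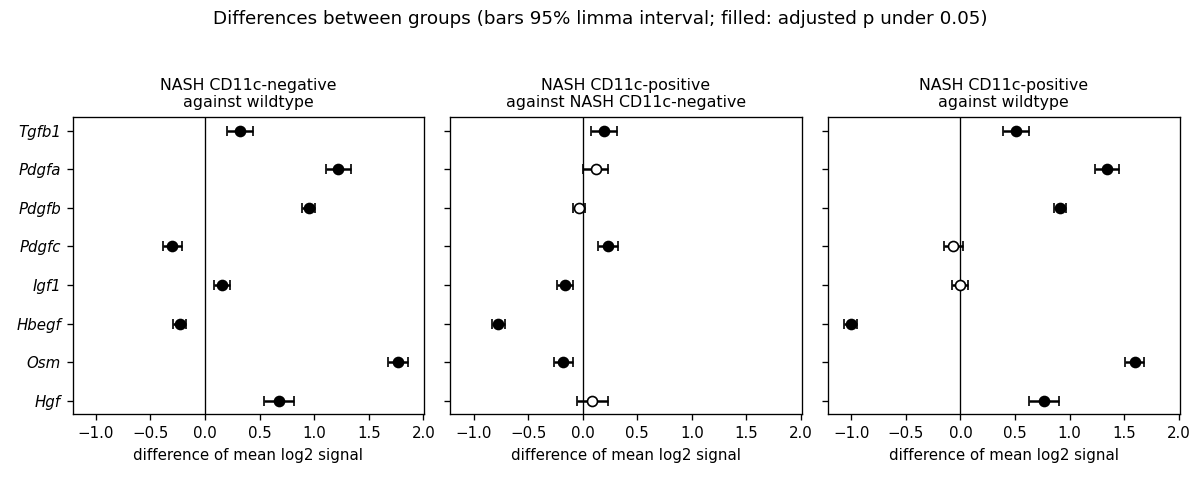
Differences of mean log2 signal between groups (x axis) for the 8 growth factors tested, with 95% limma intervals from 5 arrays a group. Filled points passed an adjusted p of 0.05; Osm and Pdgfa lie farthest to the right against wildtype, Hbegf farthest to the left between the NASH populations.

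Each growth factor has genes whose pattern over the 15 arrays was most like its own, measured as the root mean square of the difference after centring each gene, among 12964 genes. Nearest to Osm were Atf3 (0.0749) and Gadd45b (0.0765), both known as immediate stress-response genes. Nearest to Pdgfa were Eepd1 (0.0475) and Pxylp1 (0.0576), and to Pdgfb Ociad1 (0.0321) and Ldha (0.0341), the last encoding a lactate dehydrogenase chain. Hbegf lay nearest to Marcksl1 (0.0483) and Mup20 (0.0507), the last a major urinary protein gene of a family with near-identical copies, so its probe may see more than 1 gene. Hgf lay nearest to Snd1 (0.0617) and Lpcat2 (0.0633), Tgfb1 to Mrps2 (0.0348) and Os9 (0.0358), and Pdgfc to Jade2 (0.0281) and Slc37a3 (0.0286). For Igf1 by its brightest probe the nearest were Ssbp4 (0.0363) and Ndufa5 (0.0436). These are descriptions with no test, and a gene that changes little has many near neighbours.

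The genes around these factors, their carriers, receptors, inhibitors and relatives, were followed in 8 lists of 110 genes, of which 85 were measured. In NASH CD11c-negative cells against wildtype 48 of the 85 were higher, 21 lower and 16 did not pass, with 24 changed 2-fold or more (11.4% of all genes were) and a median of 0.23 against 0.13 over all genes. In CD11c-positive against CD11c-negative NASH cells 28 were higher, 27 lower and 30 did not pass, with 3 changed 2-fold or more (2.85% of all genes were) and a median of 0.02. In CD11c-positive cells against wildtype 50 were higher, 23 lower and 12 did not pass, with 33 changed 2-fold or more (13.7% of all genes were) and a median of 0.31 against 0.17 over all genes. Against wildtype the shares called stood near the background given above, and those changed 2-fold or more stood above it. Between the NASH populations the share called stood above the background, and the share changed 2-fold or more stood near it. The lists were chosen with earlier results of these data known, so these shares are descriptions with no test.

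**Figure D4:**
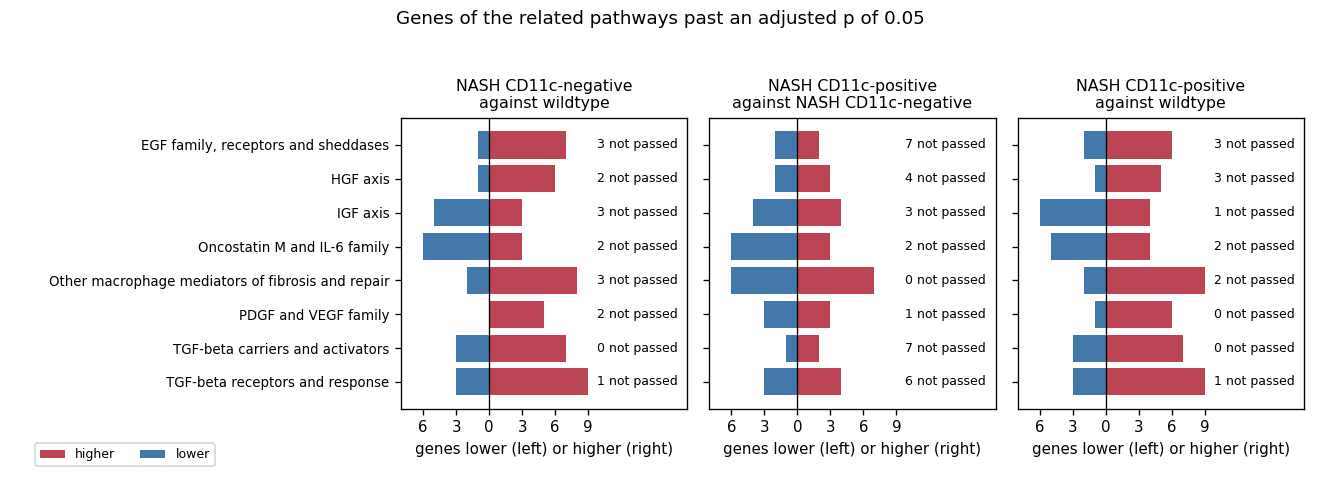
Number of measured genes in each of 8 pathway lists that passed an adjusted p of 0.05, lower to the left and higher to the right (x axis), in each of the 3 comparisons of 5 arrays against 5, with the number that did not pass beside the bars. Against wildtype most bars are longer to the right, except in the IGF and the oncostatin M lists.

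Of 10 measured carriers and activators of transforming growth factor beta, 7 rose and 3 fell in NASH CD11c-negative cells against wildtype (median 0.56). Ltbp3, which encodes a protein that holds the latent factor in the matrix, rose by 2.34 ± 0.0474 (5.06-fold, limma adjusted p = 6.12e-15), and Tgfb3, an isoform of the factor, by 1.76 ± 0.0489. Tgfb2, another isoform, had a difference of -1.34 ± 0.223 (limma adjusted p = 6.82e-05) but was above background on 1 of 5 NASH CD11c-negative arrays, and with normexp background correction the difference was -0.26. In CD11c-positive cells Ltbp3 was higher by a further 0.75 ± 0.0474, and Ltbp4, of the same family, was lower by 1.51-fold (-0.59 ± 0.0268), where 2 of the 10 were higher, 1 lower and 7 did not pass. Against wildtype 7 were higher and 3 lower in CD11c-positive cells, Ltbp3 by 3.08 ± 0.0474, Tgfb3 by 1.80 ± 0.0489 and Ltbp4 with a difference of -1.58 ± 0.0268.

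Of 13 receptors and response genes of the same factor, 9 were higher and 3 lower in CD11c-negative cells, with a median of 0.30. With quantile normalization the balance turned, to 6 higher and 7 lower and a median of -0.05. Tgfbr1, the type I receptor, rose by 1.42 ± 0.0343 (2.68-fold, limma adjusted p = 4.18e-14). Tgfbr3, the co-receptor betaglycan, fell, with a difference of -0.80 ± 0.0701. In CD11c-positive against CD11c-negative NASH cells 4 were higher and 3 lower, Eng, an endothelial co-receptor, with -0.43 ± 0.0415 and Tgfbi, a matrix protein induced by the factor, with 0.31 ± 0.0555. In CD11c-positive cells against wildtype 9 were higher and 3 lower, Tgfbr1 by 1.62 ± 0.0343 and Tgfbr3 with -1.06 ± 0.0701.

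Of 7 measured relatives and receptors in the PDGF and VEGF list, 5 were higher and 0 lower in CD11c-negative cells against wildtype (median 0.34). Vegfa, the vascular endothelial growth factor, rose by 1.73 ± 0.0483 (3.32-fold, limma adjusted p = 2.1e-13) and was higher again by 0.82 ± 0.0483 in CD11c-positive cells (1.76-fold, limma adjusted p = 4.31e-09). Vegfc, its lymphatic relative, rose by 1.54 ± 0.0611 in CD11c-negative cells and by 1.34 ± 0.0611 in CD11c-positive cells. Pdgfrb, the receptor of stellate cells, had -0.44 ± 0.126 between the NASH populations (limma adjusted p = 0.0091) and -0.33 ± 0.126 in CD11c-positive cells against wildtype, with overlapping arrays, and neither passed with quantile normalization. Of the 7, 3 were higher and 3 lower between the NASH populations, where quantile normalization left 3 higher and 0 lower, and against wildtype 6 were higher and 1 lower in CD11c-positive cells.

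In the IGF list the balance was the other way, with 3 of 11 higher and 5 lower in CD11c-negative cells (median -0.19). Irs2, the insulin receptor substrate, rose by 1.08 ± 0.0493, and Igfbp7, a binding protein, fell, with -0.71 ± 0.0957 in CD11c-negative and -1.36 ± 0.0957 in CD11c-positive cells. Igfbp1, another binding protein, was above background on 2 of 5 arrays in the wildtype and in the NASH CD11c-negative group, so its 1.00 ± 0.216 rests on dim signals, as does its 1.36 ± 0.216 in CD11c-positive cells, and normexp background correction gave 0.31 and 0.28. The NASH populations differed from each other in 8 of the 11, 4 higher and 4 lower in CD11c-positive cells, Igf2r, a receptor that clears insulin-like growth factor 2, with 0.83 ± 0.0292 (1.77-fold higher) and Igfbp4 with -0.86 ± 0.0757 (1.81-fold lower). In CD11c-positive cells against wildtype 4 were higher and 6 lower.

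Of 19 genes of the EGF list 11 were measured, and the ligand genes Btc, Egf, Epgn, Ereg, Nrg4 and Tgfa were among the 8 not measured. In CD11c-negative cells 7 were higher and 1 lower. Cd9, which encodes a tetraspanin that binds the membrane form of heparin-binding EGF-like growth factor, rose by 2.50 ± 0.0221 (5.67-fold, limma adjusted p = 1.24e-18) and stood 2.63 ± 0.0221 above wildtype in CD11c-positive cells. Nrg1, which encodes neuregulin 1, was above background on 1 of 5 wildtype arrays and rose by 2.33 ± 0.156 and 1.72 ± 0.156, sizes that normexp background correction brought to 0.82 and 0.38. Egfr, the receptor itself, was dim, above background on 2 and 3 of 5 arrays in the NASH groups, and its -0.45 ± 0.187 in CD11c-negative cells did not pass with normexp background correction (-0.04), nor its -0.61 ± 0.187 in CD11c-positive cells with quantile normalization (-0.46). CD11c-positive against CD11c-negative NASH cells had 2 higher and 2 lower (2 and 4 with normexp background correction), among them Adam9, a protease, with 0.22 ± 0.0379, Nrg1 with -0.62 ± 0.156 and Erbb2 with -0.49 ± 0.121. In CD11c-positive cells against wildtype 6 were higher and 2 lower.

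Hepatocyte growth factor is secreted as an inactive precursor that serine proteases cut, and its list holds those proteases and their inhibitors. In CD11c-negative cells 6 of 9 were higher and 1 lower (median 0.51). Plaur and Plau, the urokinase receptor and urokinase, rose by 1.43 ± 0.0337 (2.69-fold) and 1.24 ± 0.0268 (2.36-fold), and Hpn, the protease hepsin, fell, with -0.83 ± 0.0471. Of the 9, 3 were higher and 2 lower between the NASH populations (3 and 4 with normexp background correction). Spint1, an inhibitor of the activating proteases, was 2.51-fold higher in CD11c-positive cells (1.33 ± 0.0278, limma adjusted p = 5.37e-14), and the related Spint2 was lower, with -0.52 ± 0.082. Against wildtype 5 were higher and 1 lower in CD11c-positive cells, Spint1 by 2.40 ± 0.0278 (5.29-fold), Plaur by 1.64 ± 0.0337 and Hpn with -1.04 ± 0.0471.

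In the oncostatin M and interleukin 6 list, 3 of 11 were higher and 6 lower in CD11c-negative cells (median -0.18), so most of those called went the opposite way to Osm. Il6, which encodes interleukin 6, fell with a difference of -1.70 ± 0.0386 (3.25-fold lower, limma adjusted p = 2.21e-14), and was lower again by 2.41-fold in CD11c-positive than in CD11c-negative cells (-1.27 ± 0.0386). Socs3, the feedback inhibitor of this signalling, rose by 1.46 ± 0.0358 in CD11c-negative and 1.36 ± 0.0358 in CD11c-positive cells. Between the NASH populations 3 were higher and 6 lower, with Clcf1, a cytokine of the family, higher by 0.74 ± 0.0954, which normexp background correction brought to 0.41. In CD11c-positive cells against wildtype 4 were higher and 5 lower (2 and 6 with quantile normalization), Il6 with -2.97 ± 0.0386 (7.82-fold lower) and Lifr, the receptor of leukemia inhibitory factor, with -1.78 ± 0.05.

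Of 13 measured genes for other macrophage products known from fibrosis and repair, 8 were higher and 2 lower in CD11c-negative cells against wildtype (median 0.39; 7 and 5 with quantile normalization), 7 higher and 6 lower between the NASH populations, and 9 higher and 2 lower in CD11c-positive cells against wildtype (median 0.78). Spp1, which encodes osteopontin, rose by 3.78 ± 0.0435 (13.7-fold) and 3.92 ± 0.0435 (15.1-fold) in the NASH populations against wildtype. Gpnmb, a glycoprotein of lipid-laden macrophages, rose by 4.13 ± 0.0282 in CD11c-positive cells (17.5-fold) and stood 0.98 ± 0.0282 above CD11c-negative cells. Chil3, a chitinase-like protein, rose by 3.33 ± 0.0397 in CD11c-negative cells (10.1-fold) and was lower in CD11c-positive than in CD11c-negative cells, with -1.43 ± 0.0397. Retnla, like Chil3 a marker of alternative activation, fell with -2.57 ± 0.0416 and -1.86 ± 0.0416 against wildtype. The limma adjusted p of these differences ran from 6.24e-20 to 1.42e-12. The part of neutrophils and other cell types in the signals of these genes was not tested.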

How the data were processed

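The deposited scanner files give spot intensity, per the file headers as Agilent's processed signal, background-subtracted and not scaled between arrays (Agilent Feature Extraction 10.7.3.1, per the submitters' processing notes). The 15 samples were grouped by the labels. The deposited value table holds log2 values, which matched the processed signal on the log2 scale less the array's 75th percentile and less the wildtype median (median absolute difference 0.00146), and served only as an alternative.

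Of 62976 spots, 3671 controls and 113 to 190 outlier spots an array were left out. Saturation touched 0 spots. Log2 values less the 75th percentile were averaged over the spots of a probe. Of 55681 probes, 26582 were named by RefSeq accession (GRCm38.p6). A probe was kept if 4 or more of the 5 arrays of some group had it well above background (28175 probes), and the brightest kept probe stood for its gene. In 3329 of the 13390 genes more than 1 probe was kept, and 12 genes had a missing value. The tests were limma's (version 3.58.1, lmFit then eBayes, under R 4.3.3 with the data.table package in version 1.17.8), fitted on all 15 arrays, 2-sided, and the fit was tested on simulated data. The number of arrays limits the precision.

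Members, lists and tests were chosen with earlier results of these data known. Named pathway genes are, per list and comparison, the 2 largest changes called and the largest in the opposite direction; a gene this rule names is not reported here, although counts include it. Receptors in the closing observations, unmeasured ligands and single cell type markers were named after their values were seen. Alternatives were normexp background correction (offset 50), quantile normalization, other filters, slides, a replicate block, other probes, fewer arrays, another prior and each array left out. Promoters come from RefSeq, whose table holds 6 of the 9 genes; besides the GC box, the TATA box TATAAA, the AP-1 site TGANTCA, the STAT site TTCNNNGAA, the hypoxia core ACGTG, the SMAD box GTCTAGAC and the CRE TGACGTCA were searched on both strands and stood in 12.4%, 6.75%, 7.02%, 16.6%, 0.167% and 1.55% of promoters.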

Additional observations from a re-analysis of the deposited data

Results flagged for a closer look

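The Areg signal of wildtype replicate 4, -6.62 on the log2 scale relative to the 75th percentile, lay far below the other 4 wildtype arrays (-5.71 to -5.36). It was the 1 value so marked among 27 groups of 5 arrays examined, and chance marks about 1 in 20 groups. Areg was not well above background on any array, so neither this value nor its distance from the others is a measured level.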

How the results depend on the processing

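Over 24 pairs of a growth factor and a comparison, 663 alternative values were computed. Direction and call stayed in 626, 21 passed where the reported value had not, 16 changed sign and 0 lost a call, and 18 of the 24 kept both under every alternative run. Igf1 in NASH CD11c-negative against wildtype cells turned to -0.295 with quantile normalization, -0.089 with the mean of its probes, and -0.39 and -0.28 on its stepping probes. In CD11c-positive cells against wildtype its -0.004 turned to 0.015 (normexp), 0.027 (slide 2 alone) and, leaving out wildtype replicate 2, 3 or 5 or CD11c-positive replicate 1 or 2, to 0, 0.001, 0.011, 0.008 and 0.006 (range over all arrays left out -0.019 to 0.011). Between the NASH populations, Pdgfb turned to 0.001 (normexp), 0.009 (quantile), 0.062 (mean of probes) and 0.158 (its other probe), and Hgf to -0.062 on slide 2 alone. The causes were not tested. The single-probe fits of Igf1, Pdgfa and Pdgfb were chosen after seeing the data.

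The totals of called growth factors, pathway genes and genes, both directions together, stayed within 1.5 times. Counts in 1 direction moved more: with quantile normalization growth factors lower went from 2 to 3 in CD11c-negative and from 1 to 3 in CD11c-positive cells against wildtype, and higher from 2 to 3 between the NASH populations. Quantile normalization also gave -0.382 for Igf1 in CD11c-positive cells against wildtype. Leaving out each array gave 10074 to 10309, 6675 to 7153 and 10136 to 10500 genes in the 3 comparisons, 8, 5 to 7 and 6 growth factors, and 65 to 69, 51 to 55 and 72 to 74 pathway genes. Changes of 2-fold or more did move, from 694 genes higher and 833 lower to 424 and 350 with normexp in CD11c-negative cells against wildtype, from 222 and 159 to 83 and 75 between the NASH populations, and from 891 and 940 to 579 and 504 in CD11c-positive cells against wildtype. With a filter on all 15 arrays, which leaves out dim genes, they were 525 and 460, 105 and 85, and 689 and 567.

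Same-numbered replicates correlated at -0.198 to 0.373 in their deviations. These values cannot decide whether the numbers pair the samples, because same-numbered arrays also shared a slide, except CD11c-positive replicate 3. With a replicate block 10736, 7948 and 10776 genes, 8, 6 and 7 growth factors, and 69, 57 and 74 pathway genes were called. Signal over background limits Areg, Mc4r, Egfr, Nrg1, Igfbp1 and Tgfb2.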

Other observations

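The receptors of these factors, named for that role after their values were seen, were also read in the same sorted populations. The part of endothelial cells and hepatocytes in their signals was not tested. Met, the receptor of hepatocyte growth factor, rose by 0.83 ± 0.0709 in NASH CD11c-negative cells (1.78-fold, limma adjusted p = 6.22e-08) and by 0.67 ± 0.0709 in CD11c-positive cells (1.6-fold, limma adjusted p = 5.67e-07). Between the NASH populations its -0.16 ± 0.0709 did not pass (limma adjusted p = 0.0794), though it did with normexp background correction (-0.17). Receptor chains of the oncostatin M family went down instead, though the oncostatin M receptor itself did so only in CD11c-positive cells. Lifr fell with a difference of -1.40 ± 0.05 in CD11c-negative cells (2.64-fold lower, limma adjusted p = 3.34e-12), and Il6st, which encodes the shared chain gp130, with -0.30 ± 0.0391 (limma adjusted p = 6.58e-06). Osmr, the oncostatin M receptor, had -0.11 ± 0.0855 there and did not pass (limma adjusted p = 0.246), while in CD11c-positive cells it fell against wildtype, with -0.67 ± 0.0855 (1.59-fold lower, limma adjusted p = 4.34e-06). All of Lifr, Il6st and Osmr were lower in CD11c-positive than in CD11c-negative NASH cells, by differences of -0.38 ± 0.05, -0.48 ± 0.0391 and -0.56 ± 0.0855.

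Igf1r and Insr, the receptors of insulin-like growth factor 1 and insulin, fell against wildtype in CD11c-negative cells, with -0.33 ± 0.0553 and -0.47 ± 0.0504 (limma adjusted p = 7.56e-05 and 7.55e-07), and in CD11c-positive cells, with -0.28 ± 0.0553 and -0.30 ± 0.0504. Tgfbr2, the type II receptor of transforming growth factor beta, was higher by 0.30 ± 0.0357 in CD11c-negative cells (limma adjusted p = 2.78e-06), a direction that turned to -0.05 with quantile normalization. The other receptor of platelet-derived growth factors, Pdgfra, and Erbb4 were not above background in enough arrays to be tested.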
